A study of Homo sapiens with 6 samples.

Results

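The spliceosome is built from small nuclear ribonucleoproteins (snRNPs), and 40 genes for the core proteins of these particles are described here across 6 arrays. The genes were chosen by name, and a probe set (a group of short array probes that together read 1 transcript) was taken for a gene where the array's annotation gave it that 1 symbol. This found 82 of the 54675 probe sets on the array. Dim probe sets were left out by a threshold on the mean log2 value of the 6 arrays, set at the median over all probe sets, 5.19. Of the 82 probe sets 70 were kept, beside 27307 of all probe sets, and each of the 40 genes had at least 1 kept probe set among 12269 genes measured in all. Each gene was read by its brightest kept probe set. The cells were a human kidney cell line that the labels do not name. Total RNA was taken after transfection with 1 of 3 vectors, namely the empty one (mock) and those that the labels call hIMP1 wt and hIMP1 Dmut, and was read on 2 arrays for each. IMP1 is the RNA-binding protein encoded by IGF2BP1. What Dmut stands for is not given, and the labels do not say how long the transfection lasted or whether the replicates were separate cultures, so a p-value here rests on the spread among the 6 arrays alone, which may be technical.

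In splicing, the U1 snRNP pairs with the start of an intron, while U2AF and the U2 snRNP recognise its end and its branch point. The preassembled tri-snRNP of U4, U6 and U5 then joins, a helicase in U5 separates U4 from U6, and the proteins around PRPF19 and CDC5L help to form the catalytic centre. U1, U2, U4 and U5 each carry the ring of Sm proteins, and U6 carries the related LSm ring. These proteins are needed in every cell that splices its transcripts, and mutations in genes such as PRPF3, PRPF8 and PRPF31 cause retinal degeneration, while SF3B1 and U2AF1 are recurrently mutated in blood cancers.

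Promoter sequences were looked up because they are a feature of these genes that the choice did not use. RefSeq (GRCh38.p14) gave 44 promoters for 36 of the 40 genes, each 250 bases before and 50 after an annotated start, and 6 genes had several starts. SNRPD1, SF3B3, PRPF3 and LSM6 had none in the table used. The ETS core CCGGAAG, searched on both strands, stood in 21 of the 44 promoters (47.7%), beside 16.6% of 14734 promoters of the genes measured here and 10.3% of all 35116 promoters. It was found in 7 of 9 genes for U2 proteins, in 4 of 6 for the Sm ring, in 2 of 6 for the LSm ring and in 0 of 2 for the PRPF19 complex. In the remaining groups it was found in 1 of 3 for U1, 1 of 2 for U2AF, 2 of 5 for U5 and 1 of 3 for U4/U6 and the tri-snRNP. The GC box GGGCGG stood in 54.5% of the promoters beside 65.7% for measured genes, CCAAT in 29.5% beside 34.8%, CACGTG in 6.82% beside 9.34%, and TATAAA in 2.27% beside 6.32%. A match is a run of letters and no evidence that a factor binds there, and no test was made of these shares.

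SNRNP70 and U2AF2 were picked for display because they passed between the array numbers described below. SNRPF and LSM4, which did not pass, had the highest difference there among genes of their ring with 1 annotated start. PRPF6 comes first by alphabet among genes with 1 start and 2 matches to the ETS core. Promoters of these 5 genes are shown. They are SNRNP70 (chr19:49085201-49085500, plus strand), U2AF2 (chr19:55654785-55655084, plus strand), SNRPF (chr12:95858702-95859001, plus strand), LSM4 (chr19:18323027-18323326, minus strand) and PRPF6 (chr20:63980882-63981181, plus strand), each written 5′ to 3′ in the direction of the gene. Capitals mark matches to the 5 motifs on either strand.
SNRNP70: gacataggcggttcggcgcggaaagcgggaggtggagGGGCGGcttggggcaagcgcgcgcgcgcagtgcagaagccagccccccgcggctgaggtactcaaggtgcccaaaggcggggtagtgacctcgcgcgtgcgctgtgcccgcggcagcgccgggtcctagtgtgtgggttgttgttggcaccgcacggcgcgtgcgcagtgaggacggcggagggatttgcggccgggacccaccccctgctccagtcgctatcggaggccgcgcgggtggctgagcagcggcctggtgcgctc
U2AF2: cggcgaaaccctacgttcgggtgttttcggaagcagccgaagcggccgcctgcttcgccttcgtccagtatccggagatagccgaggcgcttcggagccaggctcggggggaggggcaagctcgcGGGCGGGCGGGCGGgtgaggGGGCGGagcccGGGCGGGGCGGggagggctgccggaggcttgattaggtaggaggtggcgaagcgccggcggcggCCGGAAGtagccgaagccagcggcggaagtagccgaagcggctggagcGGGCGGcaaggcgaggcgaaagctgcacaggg
SNRPF: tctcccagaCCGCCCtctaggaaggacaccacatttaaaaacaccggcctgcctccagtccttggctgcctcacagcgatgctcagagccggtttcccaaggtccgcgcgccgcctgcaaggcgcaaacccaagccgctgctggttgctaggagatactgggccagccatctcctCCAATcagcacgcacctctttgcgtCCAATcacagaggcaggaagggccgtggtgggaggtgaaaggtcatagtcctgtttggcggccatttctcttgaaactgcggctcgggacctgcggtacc
LSM4: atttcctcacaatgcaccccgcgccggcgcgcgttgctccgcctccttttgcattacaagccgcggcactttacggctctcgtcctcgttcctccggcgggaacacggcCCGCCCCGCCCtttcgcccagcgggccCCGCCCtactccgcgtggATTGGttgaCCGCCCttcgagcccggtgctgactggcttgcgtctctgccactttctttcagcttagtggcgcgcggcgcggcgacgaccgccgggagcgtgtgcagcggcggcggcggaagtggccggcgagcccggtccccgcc
PRPF6: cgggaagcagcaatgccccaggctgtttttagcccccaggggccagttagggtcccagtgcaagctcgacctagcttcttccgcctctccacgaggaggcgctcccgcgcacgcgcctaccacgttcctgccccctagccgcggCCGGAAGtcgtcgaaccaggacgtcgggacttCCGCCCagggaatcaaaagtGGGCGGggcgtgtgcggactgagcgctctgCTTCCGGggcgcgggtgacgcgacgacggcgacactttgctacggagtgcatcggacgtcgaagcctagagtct
PRPF6 held 2 matches to the ETS core and U2AF2 held 1 beside 7 matches to the GC box. SNRNP70, SNRPF and LSM4 held no match to the ETS core, and SNRPF and LSM4 held 2 and 1 matches to the CCAAT box.

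The deposited intensities had a trimmed mean of 150.02 on every array and medians between 26.7 and 33.7. The transfected gene, IGF2BP1, did not pass the test at either of its kept probe sets with either construct (limma, adjusted p = 1), and the probe sets did not read alike. The brighter one read 231 and 307 in mock, 226 and 326 in hIMP1 wt, and 266 and 288 in hIMP1 Dmut. The other read 188 and 93.2 in mock, 253 and 137 in hIMP1 wt, and 248 and 150.5 in hIMP1 Dmut, higher with both constructs at each array number, with log2 differences of 0.46 ± 0.39 and 0.51 ± 0.39. Whether these probe sets can read the constructs is not known. Kidney markers were read in part: PAX8, EYA1, SALL1 and WT1 were kept and PAX2, LHX1 and CDH16 were below the filter. Of the epithelial markers the keratin KRT18 read 1149 to 1356, KRT8 318 to 447 and EPCAM 189 to 264, while CDH1 was dim at 5.56 to 54.0. Of markers of other cells, 2 of 4 for blood, 1 of 5 for fibroblasts and 1 of 4 for endothelium were kept, and the leucocyte marker PTPRC read at most 17.7. Of 3 neuronal filament genes NEFL read 1080.5 to 1492 and INA 110 to 171, and NEFM was below the filter (8.72 to 37.8). Arrays that shared the replicate number, 1 or 2, correlated at 0.970 to 0.980 and arrays that shared a group at 0.963 to 0.964, over 27307 probe sets, while arrays that shared neither were at 0.960 to 0.968. The labels do not say what the number marks, so for many genes the group differences are also given for each array number on its own.

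**Figure D1:**
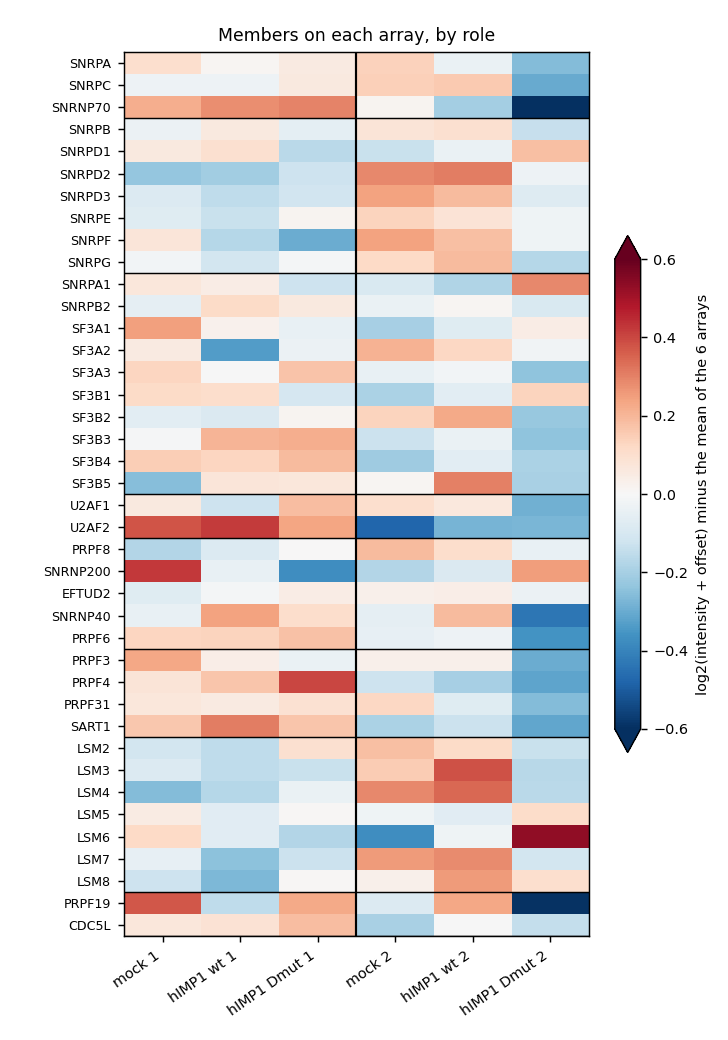
Each row is a gene and each column an array, and the colour is log2(intensity + offset) minus the gene's mean over the 6 arrays, with black lines between protein groups and between the array numbers. On this scale, with the values as deposited, genes of the Sm and LSm rings are mostly blue on mock 1 and hIMP1 wt 1 and red on mock 2 and hIMP1 wt 2, U2AF2 is red on the 3 arrays numbered 1, and hIMP1 Dmut 2 is blue for most genes.

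The first question is whether transcripts of the snRNP genes differ between cells with hIMP1 wt and cells with the empty vector. None of the 40 snRNP genes passed the test (limma, adjusted p = 1 for each; 0.00815% of all genes were called), and 0 had an unadjusted p under 0.05, beside 0.856% of all genes. On the log2 scale with an offset, 22 genes were higher, 18 were lower and the median difference was 0.0083, beside 5705 higher and 6564 lower and a median of -0.01 over all genes. The differences lay between -0.24 and 0.31. Within the arrays numbered 1, 17 were higher with a median of -0.02, and within those numbered 2, 26 were higher with a median of 0.03. As this is RNA of whole cultures, fewer cells with a transcript and less of it in each cell cannot be told apart. The groups of arrays did not overlap for 3 genes on the higher side (8.67% of all genes) and for 3 on the lower side (11% of all genes).

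SF3B5, a small subunit of the SF3b complex that binds the branch point with U2, read 1883 and 2269 in mock, 2371 and 2779 in hIMP1 wt, and 2361 and 1965 in hIMP1 Dmut. Both hIMP1 wt arrays were above both mock arrays, with a log2 difference of 0.31 ± 0.18 (SE) and a 95% interval of -0.10 to 0.72, and the difference was 0.33 and 0.29 within the arrays numbered 1 and 2. SNRNP40, a WD-repeat protein of U5, read 786 and 781 in mock, 959 and 925 in hIMP1 wt, and 872 and 598 in hIMP1 Dmut. Its hIMP1 wt arrays were the highest of the 6, and the difference from the empty vector was 0.26 ± 0.21 (0.28 and 0.24 within the 2 numbers). SNRPB2, which binds a stem loop of the U2 RNA, read 3611 and 3649 in mock, 4059 and 3782 in hIMP1 wt, and 3909 and 3523 in hIMP1 Dmut and differed by 0.11 ± 0.16 (0.17 and 0.05 within the 2 numbers). These were the 3 genes without overlap on the higher side.

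On the lower side, SNRPA, the U1 protein that binds a stem loop of the U1 RNA, read 1747 and 1792 in mock, 1643 and 1587 in hIMP1 wt, and 1690.4 and 1359 in hIMP1 Dmut. Its hIMP1 wt arrays lay below both mock arrays, with a difference of -0.13 ± 0.17 (-0.09 and -0.17 within the 2 numbers). PRPF31, which joins U4 and U6 to U5, read 1042 and 1083 in mock, 1032 and 945 in hIMP1 wt, and 1058 and 829 in hIMP1 Dmut, a difference of -0.10 ± 0.18 (-0.01 and -0.19 within the 2 numbers), and its other kept probe set had the opposite sign (0.17). LSM5 of the LSm ring read 3795 and 3606 in mock, 3502 and 3494 in hIMP1 wt, and 3682 and 3955 in hIMP1 Dmut and differed by -0.08 ± 0.16 (-0.12 and -0.05 within the 2 numbers). All 6 of these differences were below 2 standard errors.

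The other groups of proteins held values on both sides of 0. SNRPF of the Sm ring had the largest statistic of its group, -0.15 ± 0.19, and 3 of the 7 Sm genes were higher and 4 lower. SF3A2, the SF3a subunit with the lowest value of all 40 genes, read 417 and 465 in mock, 316 and 438 in hIMP1 wt, and 390.3 and 395 in hIMP1 Dmut. Its difference of -0.24 ± 0.21 was -0.39 and -0.09 within the arrays numbered 1 and 2. Of the 10 U2 genes 6 were higher and 4 lower. CDC5L, a core protein of the PRPF19 complex, read 1335 and 1114 in mock, 1354 and 1272 in hIMP1 wt, and 1449.8 and 1153 in hIMP1 Dmut. It differed by 0.10 ± 0.19 and its partner PRPF19, a ubiquitin ligase, by -0.11 ± 0.28, with -0.52 and 0.31 within the 2 numbers. U2AF1, the subunit that reads the last bases of the intron, read 3057 and 3147 in mock, 2693 and 3069 in hIMP1 wt, and 3333 and 2401 in hIMP1 Dmut at its brightest probe set and differed by -0.11 ± 0.19. A dim probe set of U2AF1 read 91.1 and 69.2 in mock and 149 and 105 in hIMP1 wt, a difference of 0.60 ± 0.30 in the opposite direction.

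**Figure D2:**
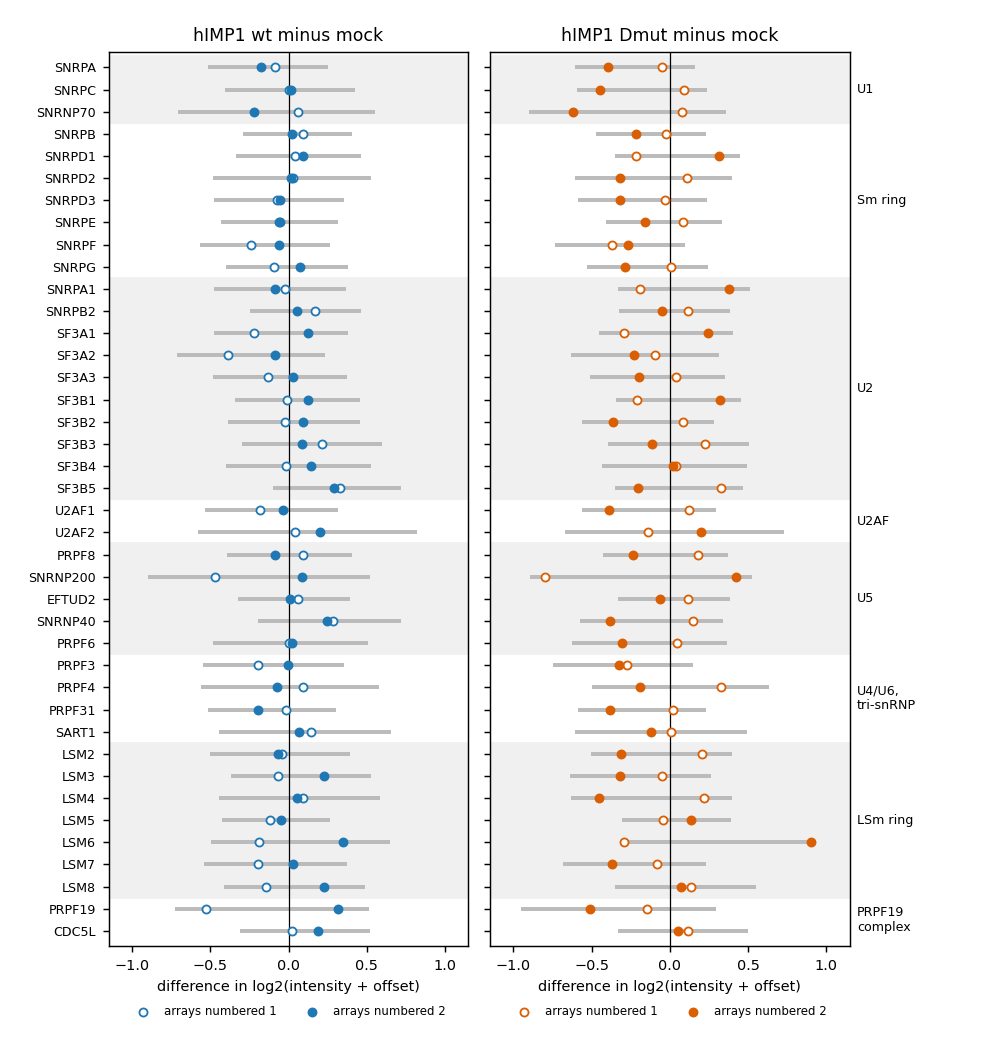
The difference from the empty vector on the log2(intensity + offset) scale is shown for each gene, for hIMP1 wt on the left and hIMP1 Dmut on the right, with open points for the arrays numbered 1, filled points for those numbered 2, and grey bars for the 95% interval of the limma fit. Every bar crosses 0, and on the right the filled points lie mostly to the left of the open ones.

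The second question is the same for hIMP1 Dmut. Again none of the 40 genes passed (limma, adjusted p = 1; 0.00815% of all genes were called), and 0 had an unadjusted p under 0.05, beside 1.34% of all genes. Of the 40, 14 were higher and 26 were lower, and their median was -0.09, beside 5973 higher and 6296 lower and a median of -0.0061 over all genes. This was not the same at both array numbers. Within the arrays numbered 1, 23 genes were higher and the median was 0.03, and within those numbered 2, 11 were higher and the median was -0.22. Without hIMP1 Dmut 1 the count of higher genes was 8, and without hIMP1 Dmut 2 it was 18. It was 18 under quantile scaling and 4 under median scaling, which moved the median of all genes to -0.07. Bright genes as a whole leaned the same way: among the 20% of all genes that were brightest, which hold 32 of the 40, 38.7% were higher, and 35.5% within number 2, beside 37.5% and 28.1% of those 32. The array hIMP1 Dmut 2 stood apart for these genes, with a median deviation from their 6-array means of -0.15, beside -0.0071 to 0.06 on the other 5 arrays. It also had the highest summed intensity of the kidney markers (788, range 596 to 788), the blood markers (124, range 75.9 to 124), the fibroblast markers (256, range 152 to 256) and the endothelial markers (84.9, range 26.6 to 84.9), and the lowest of the epithelial markers (1723, range 1723 to 2047). Of the kidney markers PAX8 (287), SALL1 (192) and PAX2 (40.8, below the filter) were highest there. EYA1 (59.7), WT1 (178), LHX1 (27.6) and CDH16 (2.76) lay within the range of the other arrays. HBB (86.9) was the only blood marker highest there, and CD14 (0.649) was at its lowest. No fibroblast marker was highest there, COL1A1 reading 165 beside 166 on hIMP1 wt 1. Of the endothelial markers CDH5 and TEK, both below the filter, were highest there, and PECAM1 and VWF were not. Of the epithelial markers KRT18 (1149) and KRT8 (318) were lowest there. EPCAM (210) and CDH1 (46.0) lay within the range of the other arrays. The part of these markers in the result was not tested.

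No gene had both hIMP1 Dmut arrays above both mock arrays (11.2% of all genes), and 7 had both below (12% of all genes): SNRPA, SNRPB, SNRPF, SF3A2, PRPF3, LSM3 and LSM7. SNRPF, a subunit of the Sm ring, read 3832 and 4310.1 in mock, 3238 and 4127 in hIMP1 wt, and 2963 and 3578 in hIMP1 Dmut. The difference was -0.32 ± 0.19, and it was negative within both numbers, at -0.37 and -0.27. PRPF3, a protein of the U4/U6 snRNP, read 405 and 351 in mock, 354 and 351 in hIMP1 wt, and 334 and 278 in hIMP1 Dmut, with the lowest values on the hIMP1 Dmut arrays. It differed by -0.30 ± 0.20, with -0.27 and -0.33 within the 2 numbers. SNRPA differed by -0.22 ± 0.17, but by -0.05 and -0.40 within them. SNRPB, which encodes the proteins B and B′ of the Sm ring, read 6653 and 7188 in mock, 7108 and 7293 in hIMP1 wt, and 6538 and 6186 in hIMP1 Dmut and differed by -0.12 ± 0.16. Its other kept probe set did overlap, with 4119 and 5199 in mock, 4064 and 4910 in hIMP1 wt, and 4284 and 3880 in hIMP1 Dmut. SF3A2 differed by -0.16 ± 0.21, LSM3 by -0.19 ± 0.20 and LSM7 by -0.22 ± 0.21.

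By protein group, 3 of 3 U1 genes were lower, with a median of -0.22, and 3 under either other scaling. Of the Sm genes 6 of 7 were lower (4 under quantile and 7 under median scaling), with a median of -0.12. Of the U5 genes 4 of 5 were lower (3 and 5), and of the U4/U6 and tri-snRNP genes 3 of 4 (3 and 4), both with a median of -0.12. In U5, PRPF6, which bridges the parts of the tri-snRNP, read 481 and 423 in mock, 482 and 429 in hIMP1 wt, and 497 and 340.2 in hIMP1 Dmut and differed by -0.13 ± 0.22. Of the U2 genes 6 of 10 were higher (7 under quantile but 1 under median scaling) and 4 lower, with SF3B1, the large subunit that clamps the branch point, at 0.05 ± 0.18 (-0.21 and 0.32 within the 2 numbers). At its brightest probe set SF3B1 read 3526 and 2861 in mock, 3505 and 3125 in hIMP1 wt, and 3042 and 3575 in hIMP1 Dmut. There hIMP1 Dmut 1 was among the lowest arrays and hIMP1 Dmut 2 was the highest. The next brightest probe set of SF3B1 showed the reverse, with its highest value on hIMP1 Dmut 1 (3290) and its lowest on hIMP1 Dmut 2 (2606). The dimmer ones read 690 and 560, 508 and 369, and 153 and 156 on these 2 arrays. LSM6 of the LSm ring also pointed 2 ways. It read 711 and 504 in mock, 623 and 643 in hIMP1 wt, and 578 and 949.6 in hIMP1 Dmut, a difference of 0.30 ± 0.26 made of -0.29 and 0.90 within the 2 numbers. PRPF19 read 1323 and 962 in mock, 917 and 1198 in hIMP1 wt, and 1194 and 673 in hIMP1 Dmut, and its difference of -0.33 ± 0.28 was the most negative of the 40. SNRNP200, the helicase that separates U4 from U6, was read only by a dim probe set, since the annotation gives its other 3 probe sets several symbols. That probe set read 131 and 83.6 in mock, 92.5 and 89.4 in hIMP1 wt, and 71.8 and 115 in hIMP1 Dmut and differed by -0.19 ± 0.32, with -0.80 and 0.43 within the 2 numbers.

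**Figure D3:**
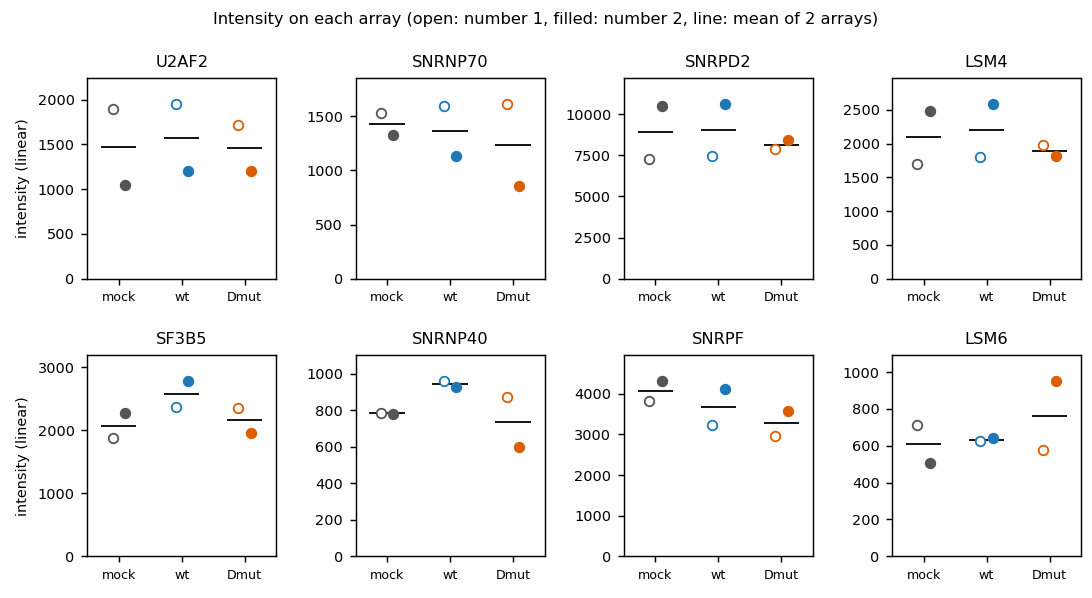
Intensity on a linear scale is shown for 8 genes, with an open point for the array numbered 1, a filled point for the array numbered 2 and a line at the mean of the 2 arrays of a group. U2AF2 and SNRNP70 are lower at number 2 in all 3 groups, SNRPD2 and LSM4 are higher at number 2 in mock and hIMP1 wt, and of the hIMP1 Dmut arrays of LSM6 1 lies within the range of mock and the other above all other arrays.

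The constructs were also compared with each other, which asks whether hIMP1 Dmut and hIMP1 wt differ. Both this comparison and those above use the same arrays, so they are not independent. None of the 40 genes passed (limma, adjusted p = 1; 0% of all genes were called), with 0 at an unadjusted p under 0.05 beside 1.01% of all genes. Of the 40, 9 were higher and 31 lower with hIMP1 Dmut, with a median of -0.08, beside 6426 higher and 5843 lower and a median of 0.0097 over all genes. Among the brightest 20% of all genes 34.5% were higher, beside 15.6% of the 32 snRNP genes that lie among them. Within number 1 these shares were 60.5% and 68.8%, and within number 2 they were 28.9% and 18.8%. Within the arrays numbered 1, 26 of the 40 were higher with a median of 0.04, and within those numbered 2, 8 were higher with a median of -0.20. The count was 16 under quantile scaling and 2 under median scaling, which moved the median of all genes to -0.11. It was 14 without hIMP1 wt 1, 17 without hIMP1 wt 2 and 19 without hIMP1 Dmut 2.

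SNRNP40 had the largest statistic. Both of its hIMP1 Dmut arrays lay below both hIMP1 wt arrays, with a difference of -0.38 ± 0.21, with -0.14 and -0.62 within the 2 numbers. SF3B5 (-0.25 ± 0.18), SNRPB (-0.18 ± 0.16) and PRPF3 (-0.20 ± 0.20) also had no overlap on the lower side, so these were 4 genes beside 8.75% of all genes. LSM5 had none on the higher side, at 0.13 ± 0.16, beside 12% of all genes. The other kept probe set of SNRPB overlapped in this comparison too. SF3B5 differed by -0.0059 and -0.50 within the 2 numbers. LSM3 read 2841 and 3351 in mock, 2707 and 3926 in hIMP1 wt, and 2739 and 2682 in hIMP1 Dmut. Its difference of -0.27 ± 0.20 was 0.02 and -0.55 within them, so it lay in the arrays numbered 2. SNRPC, which steadies the pairing of U1 with the start of the intron, read 1373 and 1552 in mock, 1375 and 1567 in hIMP1 wt, and 1461 and 1137 in hIMP1 Dmut and was at -0.19 ± 0.19, with 0.09 and -0.46. PRPF19 was at -0.22 ± 0.28, with 0.38 and -0.82.

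The difference between the array numbers, over all 3 groups, is what the group differences are read against. Here 2 of the 40 genes passed, both lower on the arrays numbered 2, beside 6.19% of all genes called, 3.71% higher and 2.49% lower. U2AF2, the U2AF subunit that binds the pyrimidine tract before the end of the intron, read 1898, 1953 and 1719 on the arrays numbered 1 and 1044, 1199 and 1202 on those numbered 2. All 3 arrays numbered 2 were below all 3 numbered 1. U2AF2 fell by 0.69 ± 0.11 on the log2 scale (limma, adjusted p = 0.00871), with -0.86 in mock, -0.70 in hIMP1 wt and -0.51 in hIMP1 Dmut. SNRNP70, the U1 protein that contacts many splicing regulators, read 1526, 1592 and 1613 on the arrays numbered 1 and 1324, 1136 and 859 on those numbered 2. SNRNP70 fell by 0.53 ± 0.13 (limma, adjusted p = 0.0412), and its within-group values were uneven, at -0.20 in mock, -0.48 in hIMP1 wt and -0.90 in hIMP1 Dmut. The other kept probe set of U2AF2 had -0.44 and read 225, 247 and 363 at number 1 and 222, 240.4 and 145 at number 2, where mock and hIMP1 wt barely differ.

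Neither call held everywhere, although the differences kept their sign and lay between -0.78 and -0.58 for U2AF2 and between -0.69 and -0.34 for SNRNP70 over the 14 alternatives run on these probe sets. With median scaling U2AF2 was at -0.58 (limma, adjusted p = 0.105) and SNRNP70 at -0.42 (0.285). Without an intensity trend in the variance the differences were as before and the adjusted p was 0.168 and 0.224. Without mock 1, hIMP1 wt 1, mock 2 or hIMP1 wt 2 it was 0.0568, 0.0536, 0.0694 and 0.0663 for U2AF2, and without hIMP1 wt 1 or hIMP1 wt 2 it was 0.152 and 0.172 for SNRNP70. SNRNP70 also missed the threshold with no filter on low values (0.0928). Without hIMP1 Dmut 1 or without hIMP1 Dmut 2, in contrast, 14 of the 40 passed, and the share of all genes called rose as well, from 6.19% to 22.9% and 22.7%.

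Most differences between the numbers did not pass. In all, 21 were higher and 19 lower at number 2, the median being 0.0032, but 13 were higher under quantile scaling, with a median of -0.08, and 25 under median scaling, with 0.11. Of the 40, 11 had an unadjusted p under 0.05 (27.5%), beside 23.5% of all genes. The arrays did not overlap for 3 on the higher side (17.4% of all genes) and for 9 on the lower side (13.1% of all genes). Those lower were SNRNP70, SF3A3, SF3B3, SF3B4, U2AF2, PRPF6, PRPF4, SART1 and CDC5L. SART1, a tri-snRNP protein, read 427, 474 and 429 on the arrays numbered 1 and 333, 349 and 305 on those numbered 2 and differed by -0.42 ± 0.12. PRPF4, a U4/U6 protein, read 586, 626 and 736 on the arrays numbered 1 and 508, 482 and 444 on those numbered 2 and differed by -0.43 ± 0.13. SF3B4, which contacts the transcript near the branch point, read 879, 869 and 905 on the arrays numbered 1 and 683, 758 and 693 on those numbered 2 and differed by -0.31 ± 0.11. These 3 were lower at number 2 in each group. PRPF6 was at -0.29 ± 0.13, SF3B3 at -0.27 ± 0.11, and CDC5L at -0.23 ± 0.11. SF3A3, another SF3a subunit, read 1031, 939 and 1062 on the arrays numbered 1 and 914, 931 and 795 on those numbered 2 and differed by -0.20 ± 0.12. All 4 genes of the U4/U6 and tri-snRNP group were lower, with a median of -0.29, and both genes of the PRPF19 complex.

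All 7 Sm genes were higher at number 2, with a median of 0.13, but 3 of 7 under quantile scaling, with a median of -0.03. All 7 LSm genes were higher, with a median of 0.25, and 6 of 7 under quantile scaling, with 0.16. Under median scaling all 14 were higher, but that scaling also moved the median of all genes to 0.12. Bright genes as a whole leaned that way, since 61.3% of the brightest 20% of all genes were higher (51.2% under quantile and 77% under median scaling). None of the 14 passed. SNRPD2 of the Sm ring read 7294, 7428 and 7874 on the arrays numbered 1 and 10492, 10612 and 8406 on those numbered 2. All 3 arrays numbered 2 were above the others, by 0.38 ± 0.13, with 0.52 in mock, 0.51 in hIMP1 wt and 0.09 in hIMP1 Dmut. SNRPD3 read 4642, 4419 and 4548 on the arrays numbered 1 and 5809, 5604 and 4659 on those numbered 2 and differed by 0.23 ± 0.12, and LSM8 read 1258, 1135 and 1381 on the arrays numbered 1 and 1402, 1639.8 and 1472 on those numbered 2 and differed by 0.26 ± 0.12. LSM7 was at 0.28 ± 0.12 and read 2940.1, 2567 and 2779.7 on the arrays numbered 1 and 3636, 3702 and 2816 on those numbered 2. LSM4 read 1698, 1808 and 1979.6 on the arrays numbered 1 and 2489.5, 2587 and 1816 on those numbered 2 and differed by 0.31 ± 0.14, with 0.55 in mock, 0.52 in hIMP1 wt and -0.12 in hIMP1 Dmut. At this probe set of LSM4 the mock and hIMP1 wt arrays separate the numbers and the hIMP1 Dmut arrays do not. The other kept probe set of LSM4, about as bright, was higher at number 2 in all 3 groups. It read 1937, 1643 and 1615 on the arrays numbered 1 and 2610, 2327 and 1895 on those numbered 2. Its difference was 0.39 ± 0.11 (limma, adjusted p = 0.0637).

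**Figure D4:**
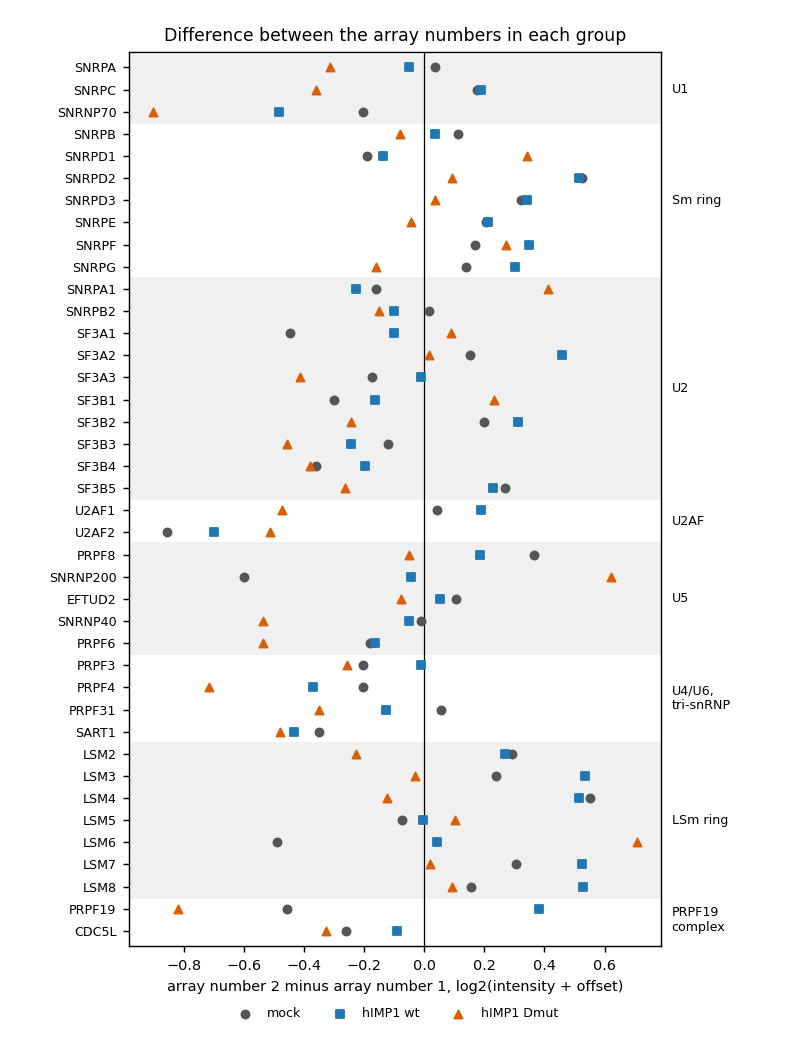
The difference between the array numbered 2 and the array numbered 1 of the same group is shown for each gene on the log2(intensity + offset) scale, with circles for mock, squares for hIMP1 wt and triangles for hIMP1 Dmut. U2AF2 lies left of 0 in all 3 groups, and SNRPD2, LSM4, LSM3 and LSM7 lie further right in mock and hIMP1 wt than in hIMP1 Dmut.

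Circles and squares of the plot by gene lay close together for many genes, and triangles lay apart from them. Over the 40 genes the number difference of mock correlated with that of hIMP1 wt at r = 0.736, and that of hIMP1 Dmut at 0.0792 with mock and 0.303 with hIMP1 wt. These are descriptions over genes that share arrays and scaling, and the 40 genes are not independent. Over all 27307 probe sets the same values were 0.464, 0.2 and 0.217. The fit was therefore repeated on the 4 arrays of mock and hIMP1 wt alone, a choice made after seeing the data, which leaves 1 residual degree of freedom for each probe set beside the pooled prior. These arrays were chosen because their differences agreed over the same genes, which keeps the spread small. The calls of this fit are descriptions and no independent test.

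In those 4 arrays 15 of the 40 genes passed, 11 higher and 4 lower at number 2 (limma), beside 23.1% of all genes called, 13.4% higher and 9.7% lower. Of the 32 that lie among the brightest 20% of all genes 14 passed (43.8%), beside 41.2% of all genes that bright, so the share was near that of other bright genes. Of the Sm ring 5 of 7 rose (1 under quantile and 6 under median scaling), of the LSm ring 4 of 7 (4 and 5), and SF3B5 and PRPF8 rose as well. SNRPD2 rose by 0.52 ± 0.08 and LSM4 by 0.53 ± 0.09, beside 0.38 and 0.31 over all 6 arrays, where neither passed. LSM7 rose by 0.42, LSM3 by 0.39, LSM8 by 0.34, SNRPD3 by 0.33, PRPF8, the scaffold of the catalytic centre, by 0.28, and SNRPF, SF3B5, SNRPG and SNRPE by 0.26, 0.25, 0.22 and 0.21. The 4 that fell were U2AF2 (-0.78), SART1 (-0.39), SNRNP70 (-0.34) and SF3B1 (-0.23). For SF3B1 the probe sets did not agree. From number 1 to number 2 its next brightest went from 2856 to 2887 in mock and from 3083 to 2984 in hIMP1 wt. A dimmer one went from 483 to 369 and from 461 to 389, and another from 539 to 655 and from 628 to 616. The split into higher and lower genes depended on the scaling: quantile scaling called 5 higher and 9 lower, with 22.5% of all genes called, and median scaling 18 higher and 1 lower, with 32.6%. Quantile scaling also called 1 Sm gene lower, and no LSm gene was called lower under the 3 scalings.

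Different probe sets of a gene did not always agree. More than 1 kept probe set was at hand for 18 of the 40 genes, and another one had the opposite sign in 10 of these for hIMP1 wt against the empty vector, in 9 for hIMP1 Dmut against the empty vector, in 8 for hIMP1 Dmut against hIMP1 wt, and in 6 between the array numbers. SNRPD1 of the Sm ring read 3337 and 2922 in mock, 3429.6 and 3117 in hIMP1 wt, and 2866 and 3637 in hIMP1 Dmut, with 0.05 ± 0.18 for hIMP1 Dmut, while its dimmer probe set gave -0.36 ± 0.20. SF3B3 read 1025, 1189 and 1201 on the arrays numbered 1 and 943, 1004 and 872 on those numbered 2, and its dimmer probe set gave 0.25 ± 0.17 between the numbers, against -0.27. LSM4 was at 0.07 for hIMP1 wt and at -0.20 by its other probe set. SNRPA1, which binds U2 together with SNRPB2, read 3421 and 3061 in mock, 3368 and 2876 in hIMP1 wt, and 2992 and 3981 in hIMP1 Dmut. It had -0.06 for hIMP1 wt, and 2 of its other probe sets gave 0.13 and 0.19. SF3A1 read 1265 and 926 in mock, 1084 and 1011 in hIMP1 wt, and 1033 and 1099 in hIMP1 Dmut and had -0.05 for hIMP1 wt, and 2 of its others gave 0.09 and 0.12. SNRPE read 6987, 6693 and 7423 on the arrays numbered 1 and 8062, 7758 and 7206 on those numbered 2 and had 0.13 between the numbers, with -0.14 at another probe set. SF3B2 read 1171, 1153 and 1239 on the arrays numbered 1 and 1346, 1434 and 1046 on those numbered 2 and had 0.09, with -0.64 ± 0.31 at a dim one. Of the 70 kept probe sets of the 40 genes, 5 passed between the numbers, beside 5.71% of all probe sets. Beside those of U2AF2 and SNRNP70 these were dim ones of PRPF6 (-0.78 ± 0.18, limma, adjusted p = 0.0319), PRPF4 (-0.56 ± 0.13, limma, adjusted p = 0.0305) and LSM8 (0.52 ± 0.13, limma, adjusted p = 0.0428), each with the sign of the brighter probe set. Some of these genes have close paralogs or processed copies, such as SNRPN for SNRPB, and whether the probe sets tell these apart was not tested.

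Some genes had small mean differences, which for hIMP1 Dmut averaged values of opposite sign within the 2 numbers. EFTUD2, the GTPase of U5, read 1617 and 1739.8 in mock, 1689 and 1752 in hIMP1 wt, and 1754 and 1662 in hIMP1 Dmut, and its 3 group differences lay between -0.01 and 0.04, with 0.12 and -0.07 within the 2 numbers for hIMP1 Dmut. LSM2 of the LSm ring read 507 and 622 in mock, 491 and 594 in hIMP1 wt, and 585 and 499 in hIMP1 Dmut, with -0.05 for hIMP1 wt and -0.05 for hIMP1 Dmut (0.20 and -0.31 within the 2 numbers). PRPF8 read 2736 and 3528 in mock, 2923 and 3329 in hIMP1 wt, and 3100.3 and 2992 in hIMP1 Dmut, with 0.0057 and -0.03 (0.18 and -0.24). SNRPG of the Sm ring read 7292 and 8022 in mock, 6839 and 8431 in hIMP1 wt, and 7332 and 6563 in hIMP1 Dmut, with -0.01 and -0.14 (0.0079 and -0.29). The 95% interval of a group difference was -0.33 to 0.38 for EFTUD2 and -0.95 to 0.29 for PRPF19, both with hIMP1 Dmut, so changes of a size inside such intervals cannot be told from 0 with 2 arrays a group.

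Other genes of the splicing pathway were read from 7 lists of 78 genes, of which 71 were measured. None of the 71 passed in any of the 3 group comparisons (limma, adjusted p = 1). Higher and lower values were found in 43 and 28 of them for hIMP1 wt against the empty vector, in 35 and 36 for hIMP1 Dmut against it, and in 26 and 45 for hIMP1 Dmut against hIMP1 wt, with medians of 0.03, -0.01 and -0.06. Between the array numbers 3 of the 71 passed, all lower at number 2, beside 6.19% of all genes called and 2.49% called lower, so this count is near the background. Of the 71, 23 were higher and 48 lower (23 higher under quantile and 37 under median scaling). LUC7L and LUC7L2, which associate with U1, fell by 0.79 ± 0.12 and 0.66 ± 0.12 (limma, adjusted p = 0.00579 and 0.0126), and PUF60, which works with U2AF at the end of the intron, fell by 0.44 ± 0.11 (limma, adjusted p = 0.0412). Of the 14 measured genes associated with U1 or U2, 13 were lower, with a median of -0.18 (13 under quantile scaling and 9 under median scaling). In the list for the second step and release 6 of 7 were lower, with a median of -0.30. That list also counts DHX16, a helicase of activation, which was at -0.48 ± 0.13. In the list for snRNP assembly 10 of 15 were lower, with PRMT5, the methyltransferase that modifies Sm proteins, at -0.42 ± 0.12, while CLNS1A, which hands Sm proteins to that enzyme, was at 0.29 ± 0.11.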

How the data were processed

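The authors deposited 1 intensity on a linear scale for each probe set and array, and the software they used is not given in the sources used here. Each array had the same trimmed mean, with 2% taken off each end, and no further scaling was applied. Groups were taken from the sample descriptions and array numbers from the sample titles. The array's 62 control probe sets were not used. To each intensity an offset of 9.04, the 25th percentile of all values, was added before log2 was taken, so that differences of dim probe sets are understated. Gene symbols came from the platform annotation, with 1 symbol for 41091 probe sets, several for 1801 and none for 11721.

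All 6 arrays entered 1 fit per comparison in limma 3.58.1 (R 4.3.3, lmFit and eBayes with an intensity trend), two-sided, with Benjamini-Hochberg adjustment over 27307 probe sets and a threshold of 0.05. Group fits had 3 residual degrees of freedom and a prior of 7.03, and the fit of the array number, with group as a covariate, had 2. The median standard error was 0.281 for a group difference and 0.179 for the number difference, a precision set by the few arrays. When 200 of 27307 simulated probe sets were changed between hIMP1 wt and mock, the fit recovered 0% of log2 changes of 1, 58% of 2 and 94% of 4. For hIMP1 Dmut minus mock these shares were 0%, 58% and 93.5%, for hIMP1 Dmut minus hIMP1 wt 0%, 59.5% and 95%, and for the number difference 0%, 63.5% and 94.5%. The simulated spread was that of the group fit, which counts the real difference between the array numbers as spread. The shares for the number difference therefore cannot show what that fit recovers in the real data, where smaller differences were called.

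The 40 genes and the lists were chosen with earlier results of these data known. Every one of the 40 may be named. Values on every array are given for genes whose groups of arrays do not overlap, for the largest statistic of each protein group in a comparison, and for those with kept probe sets of opposite sign. The alternatives were other scalings, offsets, filters and variance priors, only the 4 arrays compared, the replicate block, the mean of all kept probe sets of a gene, and each array left out.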

Additional observations from a re-analysis of the deposited data

How the results depend on the processing

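Among the 40 snRNP genes the count called was 0 in the 3 group comparisons under each alternative run. For hIMP1 wt against the empty vector the median of the 40 was 0.0658 under median scaling and -0.0634 to 0.0385 with 1 array left out, and 1 probe set of all was called with an offset at the 10th percentile, 1 with a filter at the 75th percentile, 0 with only the 4 arrays compared, 0 without a trend and 0 to 3 with 1 array left out. For hIMP1 Dmut against the empty vector 4 of the 40 were higher under median scaling and 8 to 18 with 1 array left out, and 1 probe set of all was called with the 75th percentile filter, 0 without a trend and 0 to 2 with 1 array left out. For hIMP1 Dmut against hIMP1 wt 16 were higher under quantile scaling, 2 under median scaling and 9 to 19 with 1 array left out. Between the array numbers 13 were higher under quantile scaling, the median was 0.11 under median scaling, and 0 of the 40 were called with median scaling, 1 with no filter, 0 without a trend, 5 with the mean of all kept probe sets and 0 to 14 with 1 array left out. Leaving out hIMP1 Dmut 1 or hIMP1 Dmut 2 gave the 14. Over all probe sets the number of calls was 558 with no filter, 0 without a trend and 291 to 5472 with 1 array left out. With both hIMP1 Dmut arrays left out, chosen after seeing the data, 15 of the 40 were called, 14 with quantile and 19 with median scaling. The causes were not tested.

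With the array number as a replicate block, 0 of the 40 were called in each group comparison, and 22, 14 and 9 were higher. With only 2 numbers the labels do not establish that they pair the arrays. In the 4 comparisons 10, 12, 7 and 25 of the 40 genes had 1 sign under every alternative counted. The mean of all kept probe sets of a gene was not counted here. A gene with probe sets of opposite sign may therefore change sign under that mean. Dim probe sets such as that of SNRNP200 limit what can be read for their genes.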
